A study of Solanum lycopersicum with 9 samples.

Results

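Cell wall sequences of the tomato leaf were followed across doses of p-hydroxybenzoic acid (PHBA), a phenolic acid that plants release and that can inhibit the growth of other plants. Members were all sequences of the deposited table whose protein annotation holds a Pfam domain (a catalogued protein domain) of 1 of 7 wall families and which reached 0.5 FPKM in at least 3 of the 9 libraries. FPKM are fragment numbers per sequence length, scaled to the size of each library. There were 101 members among 44203 sequences that passed this minimum, out of 82125 in the table. They comprised 12 endoglucanases of glycoside hydrolase family 9 (GH9), 21 xyloglucan enzymes, 12 expansins, 8 pectate lyases, 14 pectinesterases, 14 GH28 sequences of the polygalacturonase type and 20 of the cellulose synthase family. The members are named by their assembly identifiers, since the files pair them with no gene name or position, and several may be pieces or near copies of 1 gene. Of 109 sequences with these domains in the table, 8 fell short of the minimum, and 1 more annotated sequence has no row there. Just inside it were 4 members with 3 libraries at 0.5 FPKM, for example the expansin TCK_1_TRINITY_DN35866_c0_g1 with a mean of 0.347 FPKM. Just outside, the GH9 sequence T30_1_TRINITY_DN76705_c0_g1 reached it in 2 libraries, with a mean of 0.444 FPKM.

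All plants were Solanum lycopersicum of the cultivar Diana, treated about one month after planting and sampled as leaf after 2 days. The control was untreated (0 mM), and the other groups received 15 or 30 mM PHBA. Each group had 3 libraries. RNA of the same treatment was mixed in equal parts, and the labels do not say that the libraries of a group came from separate plants, so the spread behind the p-values is that between libraries and may be technical. In such bulk RNA, fewer cells of a type and less RNA per cell cannot be told apart.

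The growing plant cell wall is a network of cellulose microfibrils, hemicelluloses such as xyloglucan, and pectin. Cellulose is made at the plasma membrane by cellulose synthases, and related synthase-like proteins make other wall polymers. Expansins loosen the contact between cellulose and other polymers without cutting them, xyloglucan endotransglucosylases/hydrolases cut and rejoin xyloglucan chains, and GH9 enzymes cut β-1,4-glucans and in part help cellulose synthesis. Pectinesterases remove methyl groups from pectin, which opens it either to calcium cross-links or to pectate lyases and polygalacturonases, which cut the chain.

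Summed FPKM was 349076 to 383347 per library, and relative depth was 0.88 to 1.21 against 1 in control replicate 1. This depth was the most frequent FPKM ratio of control replicate 1 to each library in rarely detected sequences, assuming equal fragment numbers. Read counts are not used here, so no counting interval is given. Of the summed FPKM, 39.4 to 45% in control libraries was in only 4 sequences, compared with 34.3, 44.6 and 26.9% in 15 mM replicates 1 to 3 and 33.5, 37 and 42.4% in those of 30 mM. Lowest was 15 mM replicate 3. By construction, a lower share leaves more FPKM to the other sequences. Over all sequences the median log2 fold change was 0.15 at 15 mM and 0.18 at 30 mM against the control (0.19 and 0.30 among annotated ones). After quantile normalization these medians were 0.00 and -0.01 for all sequences. The family sums below are therefore also described on 2 other scales, rescaled by median of ratios or without these 4 sequences. Leaf markers were abundant: the summed FPKM of 24 chlorophyll a-b binding sequences was between 4897.2 and 7559.4 for controls, between 4161.8 and 5679.1 for 15 mM and between 1820.5 and 2906.1 for 30 mM, and 19 of the 24 fell at 30 mM. The pollen and flower markers (20 sequences in all) summed to between 52 and 66.5 FPKM for controls, between 50.8 and 67.9 for 15 mM and between 46.8 and 61.7 for 30 mM, and 1 of the 18 tested fell. The root and xylem markers summed to 102 to 117, 114 to 166 and 109 to 151 FPKM, with 3 of 30 higher and 1 lower at 30 mM. Terpene synthases, taken for glandular trichomes, summed to 6.02 to 7.21, 5.72 to 7.36 and 8.62 to 9.55 FPKM, with none of 9 called. No sequence of the table is annotated as self-incompatibility protein S1 or with the PF01620 pollen allergen domain. The part of these shifts in the wall results was not tested.

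Which wall families change under strong PHBA exposure was asked by setting 30 mM against control. At 30 mM, 17 of the 101 members rose, 10 fell and 74 did not pass the test. Rises were found among xyloglucan enzymes (5 of 21), pectinesterases (4 of 14), expansins (3 of 12), the cellulose synthase family (3 of 20) and GH28 sequences (2 of 14). The falls were in GH9 endoglucanases (4 of 12), pectate lyases (3 of 8), xyloglucan enzymes (2 of 21) and pectinesterases (1 of 14). No GH9 or pectate lyase sequence rose, and no expansin, GH28 or cellulose synthase family sequence fell. Under quantile normalization or median-of-ratios rescaling, 1 expansin, 1 GH28 sequence and 2 cellulose synthase family sequences were also called lower. A single GH9 sequence was called higher with a pseudocount of 0.1, with array weights or without the 4 leading sequences. The calls are from limma on log2(FPKM + 1) at a Benjamini-Hochberg adjusted p under 0.05 over all 44203 sequences, of which 11.8% were called (24.0% of annotated ones), with 10% higher and 1.75% lower. Among the 13634 annotated sequences 21.1% rose and 2.95% fell, against 16.8% and 9.9% of the members. The members' median log2 fold change was 0.13, below the 0.30 of annotated sequences. The split into 17 higher and 10 lower depended on the scale of the libraries and became 11 to 19 after quantile normalization, 12 to 19 after median-of-ratios rescaling and 21 to 15 with the 4 most abundant sequences left out. Of the 27 calls, 21 remained in all 3 of these rescalings and 16 passed whichever single library was left out. In 33 of the 101 members the 30 mM libraries lay wholly above the controls and in 21 wholly below, against 25.9% and 6.04% of all sequences (47.3% and 7.92% of annotated ones). At an unadjusted p under 0.05 there were 49 members, against 26.1% of all and 45.9% of annotated sequences. The total was 16 without control replicate 1 and 18 without control replicate 2, and 20 to 28 without any other library.

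**Figure D1:**
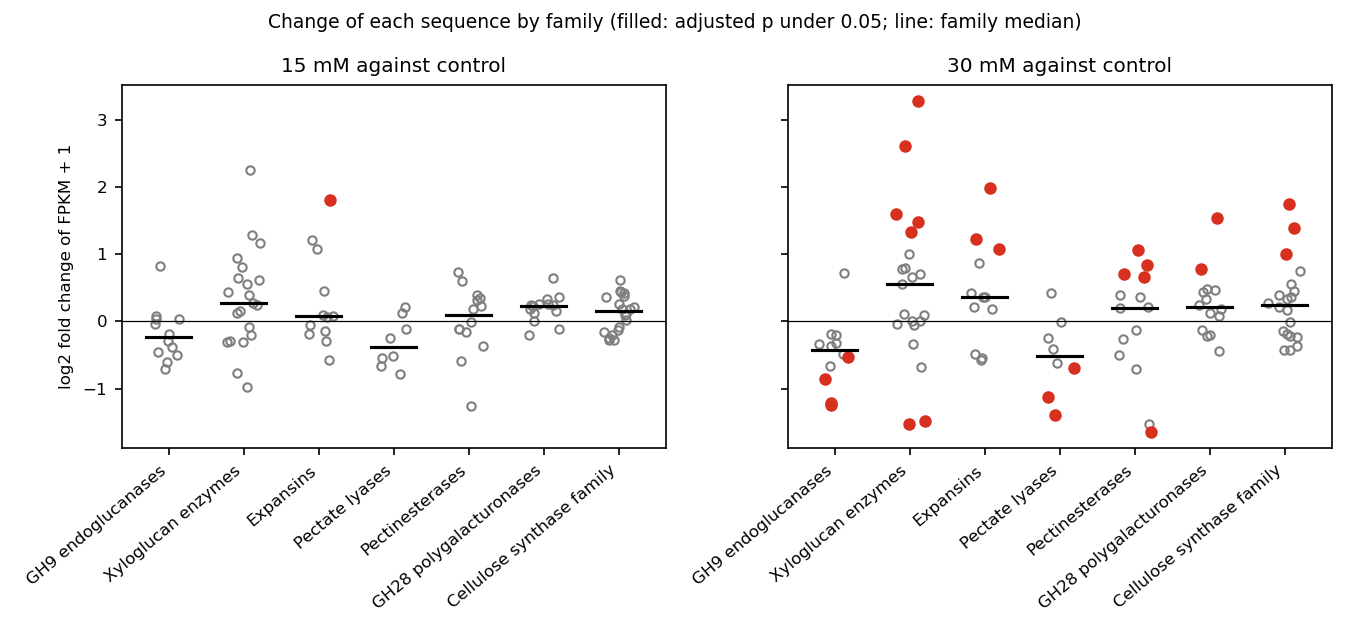
Log2 fold change of FPKM + 1 (vertical axis) of each of the 101 members against the control at 15 mM (left) and 30 mM PHBA (right), by family; filled points have an adjusted p under 0.05 and short lines are family medians. At 15 mM 1 expansin is filled, while at 30 mM GH9 and pectate lyase sequences are filled below 0 and expansins above 0, and xyloglucan enzymes on both sides.

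The comparison of 15 mM with the control asked which wall sequences change at the lower dose. At 15 mM, 1 of the 101 members was called, an expansin that rose, and none fell. The same test called 0.0995% of all sequences, 0.0837% higher and 0.0158% lower, and 0.132% of annotated ones, all higher (0.0% lower). The 15 mM libraries lay wholly above the controls in 24 members and wholly below in 13, against 14.7% and 2.37% of all sequences and 23.8% and 2.02% of annotated ones. At an unadjusted p under 0.05 there were 30 members, beside 10.4% of all sequences and 15.1% of annotated ones. The single call was lost without any one library except 15 mM replicate 2 (adjusted p = 0.0526 to 0.164), and array weights gave 7 higher and 1 lower. Between the 30 and 15 mM doses, 3 members rose (an expansin, a xyloglucan enzyme and a cellulose synthase family sequence) and 1 fell (a GH9 sequence), against 2.41% and 0.69% of all sequences (3.1% in either direction) and 4.81% and 1.15% of annotated ones (5.96%). Without overlap, 12 members were higher and 19 lower, beside 12.6% and 6.9% of all and 21.3% and 7.85% of annotated sequences. An unadjusted p under 0.05 was found for 27 members, beside 16.8% of all and 26.3% of annotated sequences.

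**Figure D2:**
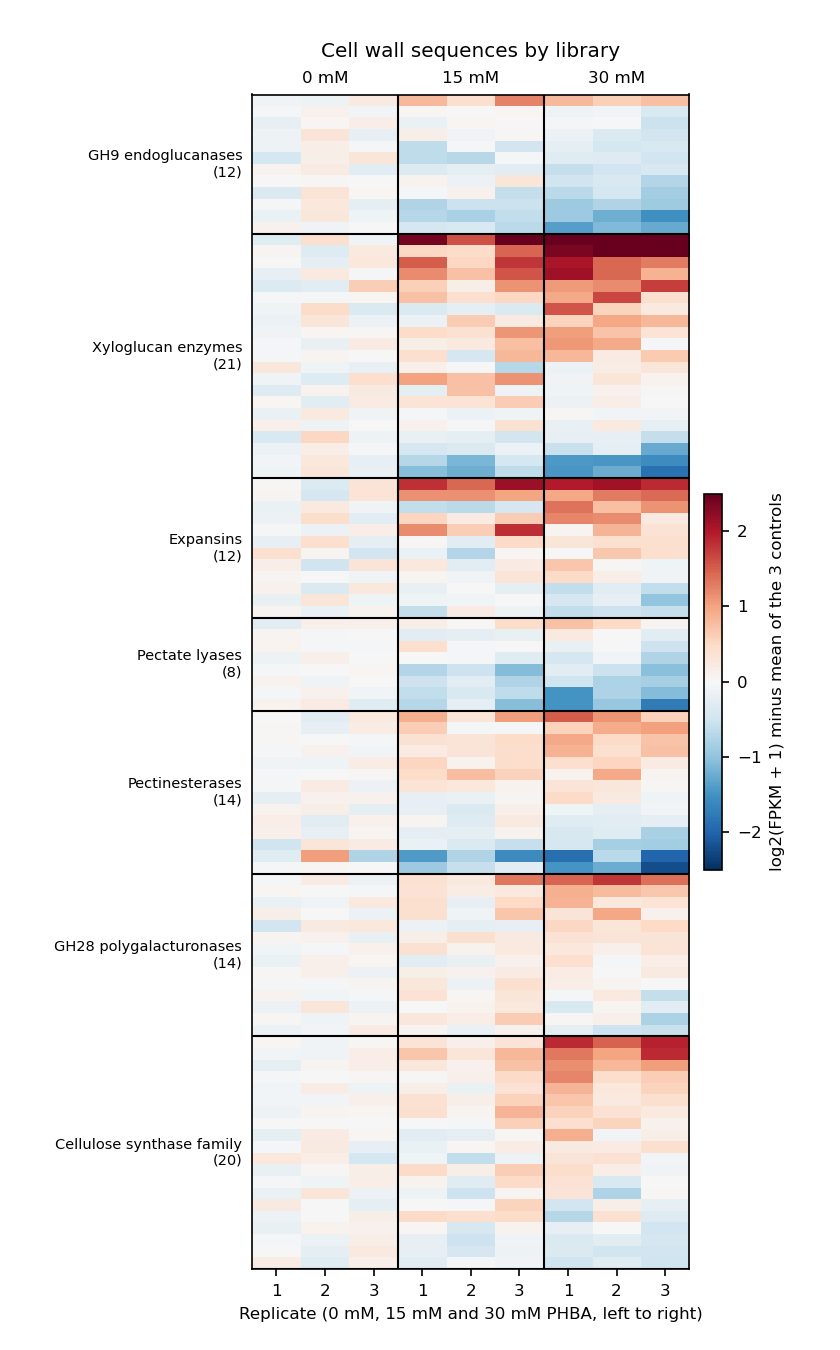
Level of each member in each library as log2(FPKM + 1) minus the mean of the 3 controls (colour), with libraries in columns by dose and replicate and members in rows, grouped by family and ordered by their change at 30 mM. Red rows at the top of the xyloglucan, expansin and cellulose synthase blocks and blue rows at the foot of the GH9, xyloglucan, pectate lyase and pectinesterase blocks hold the members with the largest changes at 30 mM, and colours end at 2.5 in either direction.

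The summed expansin level at 15 and 30 mM was 1.97 and 2.23 times that of the controls. It was 22.1, 20.7 and 24.1 FPKM in control replicates 1 to 3, 43.2, 37.2 and 51.2 at 15 mM and 48.5, 53.5 and 47.5 at 30 mM. All 6 treated libraries lay above all 3 controls, while the 15 and 30 mM libraries overlapped as deposited. With the 4 leading sequences of the table left out, the doses no longer overlapped, at 65.7, 67.1 and 70.0 for 15 mM and 73.0, 84.8 and 82.5 for 30 mM. The sums at 15 and 30 mM remained above the controls in both rescaled versions, by median of ratios and without the 4 leading sequences. The family median log2 fold change was only 0.07 at 15 mM and 0.37 at 30 mM, beside 0.19 and 0.30 for annotated sequences. Most of the rise in the sum lay in the 2 most abundant members, described below. These 2 lack the PRINTS signature PR01226, which the annotation names as that of expansins and which 9 of the 12 members carry. Of the 2, TCK_3_TRINITY_DN74336_c0_g1 does carry PR01225, a signature that these 9 also hold. T30_3_TRINITY_DN3393_c1_g1 has no PRINTS entry, so the lack of PR01226 does not place either outside the expansins.

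The most abundant expansin, T30_3_TRINITY_DN3393_c1_g1, has the cellulose-binding-like domain (PF01357) alone. Its values were 4.16, 2.94 and 5.24 FPKM in the controls, 16.9, 12.6 and 21.6 at 15 mM and 18.8, 20.5 and 17.4 at 30 mM. It stood in the treated libraries well above the controls at both doses and overlapped between the doses. The change was 1.81 at 15 mM (log2 fold change, SE 0.22, adjusted p = 0.0286) and 1.98 at 30 mM (SE 0.22, adjusted p = 0.000932). The difference between the doses was 0.17 (SE 0.22, adjusted p = 0.763). TCK_3_TRINITY_DN74336_c0_g1, with both expansin domains, had 6.1, 4.05 and 7.56 FPKM in the controls, 13.8, 13.9 and 12.3 at 15 mM and 12.1, 15.6 and 17 at 30 mM. Its groups at either dose did not overlap with the controls. At 30 mM it rose by 1.23 on the log2 scale (SE 0.20, adjusted p = 0.00593), which no longer passed on quantile-normalized values (0.75, adjusted p = 0.113) and median-of-ratios rescaling (0.87, adjusted p = 0.0563). At 15 mM its change was 1.08 (SE 0.20, adjusted p = 0.11).

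An opposite course at 15 mM was seen in TCK_2_TRINITY_DN4228_c0_g1, which carries PR01226. It had 1.15, 1.87 and 1.27 FPKM in the controls, 0.57, 0.52 and 0.79 at 15 mM and 5.17, 3.05 and 4.26 at 30 mM. The 3 libraries of each dose formed separate ranges, with 15 mM lowest and 30 mM highest. It rose by 1.65 from 15 to 30 mM (log2 fold change, SE 0.19, adjusted p = 0.00443) and by 1.08 from control to 30 mM (SE 0.19, adjusted p = 0.0088). The drop at 15 mM was not called (-0.57, SE 0.19, adjusted p = 0.363). The third sequence without PR01226, T15_3_TRINITY_DN65763_c0_g1, carries PR01225 and was singled out after its values were seen. It had means of 0.517 ± 0.168, 2.71 ± 1.57 and 1.09 ± 0.588 FPKM at 0, 15 and 30 mM (SD, n = 3 each). Its change at 15 mM was 1.21 and not called (adjusted p = 0.23). The other 8 expansins were not called at any dose, with log2 fold changes of -0.58 to 0.87 at 30 mM.

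Xyloglucan enzymes held both the largest rises and some of the clearest falls of the wall families. Their summed level was 113, 127 and 124 FPKM in the controls, 165, 137 and 217 at 15 mM and 229, 208 and 156 at 30 mM, so that every treated library was above every control. This held in both rescaled versions, by median of ratios and without the 4 leading sequences. By median of ratios the margin was narrow: the controls were at 133.3 to 150.2, 15 mM at 151.7 to 178.2 and 30 mM at 155.5 to 179.1. Within each treated group the order of the sums was opposite to the share of FPKM in the 4 most abundant sequences (34.3, 44.6 and 26.9% at 15 mM and 33.5, 37 and 42.4% at 30 mM). With those 4 sequences left out the sums were 252, 247 and 296 at 15 mM and 344, 330 and 270.2 at 30 mM, against 205 to 213 in the controls. As deposited, most of the net rise of the mean sum from 121.5 FPKM in controls to 197.4 at 30 mM lay in 2 members described below. T30_2_TRINITY_DN11898_c0_g1 went from a mean of 3.23 to 40.7 FPKM and T30_2_TRINITY_DN18447_c0_g2 from 9.92 to 31.2. The family median log2 fold change was 0.27 at 15 mM and 0.56 at 30 mM, beside 0.19 and 0.30 for annotated sequences. At 30 mM 5 of the 21 members rose, 2 fell and 14 did not pass.

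T30_2_TRINITY_DN11898_c0_g1 had the largest change of all 101 members. It carries the GH16 catalytic domain (PF00722) and the C-terminal domain of xyloglucan endotransglucosylases (PF06955). Control libraries had 2.35, 4.47 and 2.88 FPKM, those at 15 mM 20.8, 11.6 and 27.6, and those at 30 mM 47.5, 47.8 and 26.8. The control range was far below both treated ranges, which overlapped with each other. At 30 mM it rose by 3.28 (log2 fold change, SE 0.34, adjusted p = 0.000752), and at 15 mM the change of 2.26 just missed the threshold (SE 0.34, adjusted p = 0.0657). T15_2_TRINITY_DN10060_c0_g1, with the same domains, had 0.73, 0.33 and 0.97 FPKM in the controls, 1.37, 1.28 and 3.52 at 15 mM and 7.51, 8.28 and 12.2 at 30 mM. Its 3 dose ranges were separate and ordered by dose. The rise was 2.61 at 30 mM against control (SE 0.29, adjusted p = 0.00106) and 1.80 from 15 to 30 mM (SE 0.29, adjusted p = 0.0161). The latter call was lost when 15 mM replicate 1, 15 mM replicate 2 or 30 mM replicate 3 was left out (adjusted p between 0.0527 and 0.0646) and in a fit of these 2 groups alone (adjusted p = 0.0612).

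The remaining 3 risers of this family were less even between libraries and are named because they were called. T30_2_TRINITY_DN18447_c0_g2 had 9.92 ± 1.69, 23.9 ± 7.2 and 31.2 ± 14 FPKM at 0, 15 and 30 mM (log2 fold change 1.48 at 30 mM, SE 0.32, adjusted p = 0.0195). T15_3_TRINITY_DN23322_c0_g1 had 3.68 ± 0.825, 11 ± 4.82 and 13.4 ± 4.18 FPKM (1.60, SE 0.33, adjusted p = 0.0166). T15_3_TRINITY_DN6575_c1_g1, annotated with PF00722 alone, had 1.49 ± 0.997, 2.8 ± 1.3 and 5.1 ± 1.58 FPKM (1.33, SE 0.33, adjusted p = 0.034). Without control replicate 1 none of these 3 was called (adjusted p = 0.0766, 0.06 and 0.121). Leaving out control replicate 3 likewise ended the first (adjusted p = 0.0602), the second without control replicate 2 or 30 mM replicate 1 (adjusted p = 0.0657 and 0.0608). The last was lost without control replicate 2, 15 mM replicate 1 or any 30 mM library (adjusted p = 0.0565 to 0.115) and after quantile normalization (adjusted p = 0.086) or median-of-ratios rescaling (adjusted p = 0.0706).

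In the opposite direction, 2 xyloglucan enzymes with both domains fell at 30 mM. T30_2_TRINITY_DN17724_c0_g1 had 9.89, 12.7 and 8.95 FPKM in the controls, 5.93, 4.14 and 7.37 at 15 mM and 3.24, 3.18 and 2.83 at 30 mM. T15_2_TRINITY_DN17026_c0_g1 had 4.12, 5.88 and 3.85 FPKM in the controls, 1.65, 1.39 and 2.58 at 15 mM and 1.03, 1.36 and 0.52 at 30 mM. In both, the controls were above every treated library and the 30 mM libraries were below every 15 mM library. The falls at 30 mM were -1.48 (SE 0.19, adjusted p = 0.00206) and -1.52 (SE 0.23, adjusted p = 0.00412), and those at 15 mM, -0.77 and -0.97, were not called (adjusted p = 0.219 and 0.196). The most abundant member, TCK_1_TRINITY_DN544_c0_g1, had 27.6, 22.1 and 31 FPKM in the controls, 34.2, 34.1 and 41.8 at 15 mM and 24.1, 30.1 and 26.7 at 30 mM. Its 30 mM libraries overlapped with the controls, and no change was called (0.44 at 15 mM, adjusted p = 0.396; 0.01 at 30 mM, adjusted p = 0.982). Of the 21 members, 14 hold the C-terminal domain, and these include 4 of the 5 that rose and both that fell.

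**Figure D3:**
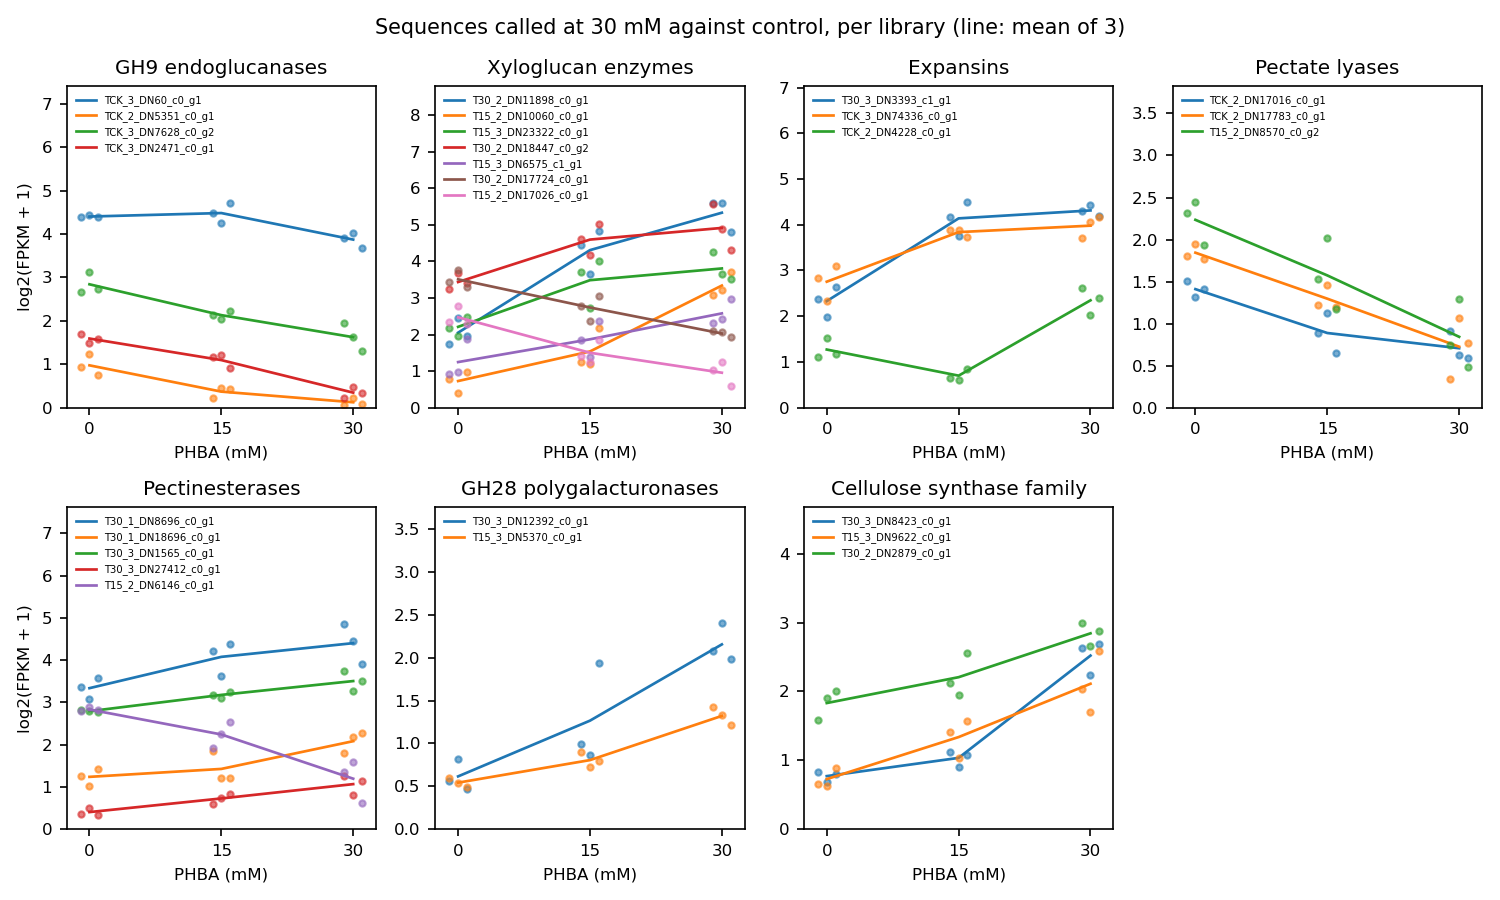
Level as log2(FPKM + 1) against PHBA dose in mM for the 27 members called at 30 mM against control, 1 panel per family; points are libraries and lines join the means of 3 libraries. The expansins T30_3_TRINITY_DN3393_c1_g1 and TCK_3_TRINITY_DN74336_c0_g1 are already high at 15 mM, whereas the cellulose synthase family sequence T30_3_TRINITY_DN8423_c0_g1 stays low until 30 mM.

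Of the 12 GH9 endoglucanases 4 fell at 30 mM, none rose and 8 did not pass the test, with a family median of -0.43 against 0.30 for annotated sequences. The summed level was 50.8, 58.3 and 55.3 FPKM in the controls, 57.9, 50.0 and 69.5 at 15 mM and 47.7, 45.7 and 40.6 at 30 mM. The 30 mM libraries were below all others, also in both rescaled versions. At 15 mM the groups overlapped as deposited and with those 4 sequences left out, and were lower than the controls after median-of-ratios rescaling.

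The most abundant GH9 sequence, TCK_3_TRINITY_DN60_c0_g1, had 19.9, 20.6 and 20 FPKM in the controls, 21.4, 18 and 25.1 at 15 mM and 14.1, 15.2 and 11.8 at 30 mM. The controls were tightly grouped and overlapped with 15 mM, while the 30 mM libraries were lower than both. It fell by 0.53 on the log2 scale (SE 0.14, adjusted p = 0.0456), which no longer passed without any one library except 15 mM replicate 2 or 3 (adjusted p = 0.0519 to 0.138). TCK_3_TRINITY_DN2471_c0_g1 declined with dose. It had 2.24, 1.82 and 1.99 FPKM in control replicates 1 to 3, then 1.24, 1.31 and 0.88 at 15 mM, and 0.16, 0.4 and 0.26 at 30 mM. None of its 3 dose ranges overlapped. It fell by 1.25 at 30 mM against control (SE 0.15, adjusted p = 0.00155) and by 0.75 from 15 to 30 mM (SE 0.15, adjusted p = 0.0366). The latter call was lost without any one library except 15 mM replicate 3 or 30 mM replicate 2 (adjusted p = 0.0678 to 0.127).

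The member with a carbohydrate-binding module (PF09478), TCK_3_TRINITY_DN7628_c0_g2, had 5.38, 7.68 and 5.63 FPKM in the controls, 3.37, 3.1 and 3.68 at 15 mM and 2.83, 2.07 and 1.48 at 30 mM. These ranges were again separate and ordered by dose. It fell by 1.22 at 30 mM (log2 fold change, SE 0.19, adjusted p = 0.00455). At 15 mM the change of -0.71 was not called (adjusted p = 0.24). TCK_2_TRINITY_DN5351_c0_g1, named because it was called, is a rare sequence with means of 0.983 ± 0.349, 0.293 ± 0.107 and 0.09 ± 0.07 FPKM. It reached 0.5 FPKM only in the 3 controls (0.92, 1.36 and 0.67). Its membership thus rests on the group where it is high, and its fall, counted among the 4 of GH9, is partly tied to that choice. It fell at 30 mM as well (-0.85, SE 0.19, adjusted p = 0.0241). It did not pass when control replicate 1 or 2 or 30 mM replicate 1 or 3 was left out (adjusted p = 0.0565 to 0.107). The call was also lost with no filter on low values (adjusted p = 0.0601). One abundant member went the other way without being called: T30_1_TRINITY_DN374_c0_g2, singled out after its values were seen, had 10.6 ± 1.64, 19.9 ± 5.97 and 18 ± 1.4 FPKM, with changes of 0.82 at 15 mM (adjusted p = 0.216) and 0.72 at 30 mM (adjusted p = 0.0535).

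Of the 8 pectate lyases 3 fell at 30 mM, none rose and 5 did not pass the test. The family was low in these leaves: its members had means over all libraries of 0.502 to 2.29 FPKM. Summed, they reached 15.5, 17.1 and 15.1 FPKM in the controls, 11.5, 12.6 and 9.61 at 15 mM and 10.2, 11 and 5.78 at 30 mM. Every treated library was below every control, also in both rescaled versions, and the doses overlapped. The family median was -0.38 at 15 mM and -0.52 at 30 mM.

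T15_2_TRINITY_DN8570_c0_g2 had 3.99, 4.45 and 2.83 FPKM in the controls, 1.89, 3.05 and 1.25 at 15 mM and 0.68, 1.45 and 0.4 at 30 mM. Its 15 mM libraries overlapped with both other groups, which were apart from each other. It fell by 1.39 at 30 mM (log2 fold change, SE 0.28, adjusted p = 0.0137), which no longer passed when control replicate 1, control replicate 2 or 30 mM replicate 1 was left out (adjusted p between 0.0511 and 0.0588). TCK_2_TRINITY_DN17783_c0_g1 had 2.49, 2.87 and 2.42 FPKM in the controls, 1.34, 1.75 and 1.3 at 15 mM and 0.27, 1.09 and 0.7 at 30 mM. The 3 ranges were separate. It fell by 1.12 at 30 mM (SE 0.19, adjusted p = 0.00783). TCK_2_TRINITY_DN17016_c0_g1, named because it was called, had means of 1.66 ± 0.165, 0.867 ± 0.305 and 0.64 ± 0.209 FPKM and fell by 0.70 (SE 0.17, adjusted p = 0.0319). Its call was lost without any one library except 15 mM replicates 2 and 3 and 30 mM replicate 1 (adjusted p between 0.0566 and 0.118). The most abundant pectate lyase, T15_3_TRINITY_DN2152_c0_g1, did not pass. It had 1.8 ± 0.413, 2.25 ± 0.494 and 2.81 ± 0.863 FPKM (0.43 at 30 mM, SE 0.21, adjusted p = 0.234).

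Pectinesterases split. Of 14 members 4 rose and 1 fell at 30 mM. All 5 are among the 10 that also carry the pectinesterase inhibitor domain (PF04043), a part thought to keep the enzyme inactive until cleaved off. The median level of these 10 was 3.41 FPKM, against 0.812 FPKM in the 4 without the domain, on a scale that understates changes of low values. Their median log2 fold changes at 30 mM were 0.12 and 0.20. The summed level overlapped between all groups, with 45.8, 52.6 and 47.8 FPKM in the controls, 55.4, 49.6 and 60.7 at 15 mM and 65.6, 63.9 and 46.6 at 30 mM. All groups also overlapped in both rescaled versions, but the order of the means depended on the scale. At 0, 15 and 30 mM the mean sums were 48.7, 55.2 and 58.7 as deposited and 56.5, 52.3 and 50.9 by median of ratios. They were 83.4, 85.6 and 93.6 with the 4 leading sequences of the table left out. After quantile normalization none of the 14 rose and 2 fell.

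The most abundant pectinesterase, T30_1_TRINITY_DN8696_c0_g1, had 9.22, 7.42 and 11 FPKM in the controls, 17.7, 11.4 and 19.7 at 15 mM and 27.8, 20.8 and 14 at 30 mM. Treated libraries were all higher than controls, with a wide spread at 30 mM. It rose by 1.07 at 30 mM (log2 fold change, SE 0.27, adjusted p = 0.0376), which no longer passed without any one library except 15 mM replicates 2 and 3 and 30 mM replicate 3 (adjusted p between 0.0593 and 0.127) and after quantile normalization (adjusted p = 0.111). T30_3_TRINITY_DN1565_c0_g1, named because it was called, had means of 5.92 ± 0.135, 8.05 ± 0.46 and 10.4 ± 1.84 FPKM and rose by 0.71 (SE 0.13, adjusted p = 0.0108). It was not called after quantile normalization (adjusted p = 0.262) or median-of-ratios rescaling (adjusted p = 0.126).

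The other 2 pectinesterases that rose were less abundant, and the second is named because it was called. T30_1_TRINITY_DN18696_c0_g1 had 1.37 ± 0.316, 1.74 ± 0.733 and 3.27 ± 0.692 FPKM (0.84, SE 0.22, adjusted p = 0.0381), and T30_3_TRINITY_DN27412_c0_g1 had 0.323 ± 0.085, 0.657 ± 0.135 and 1.11 ± 0.337 FPKM (0.66, SE 0.17, adjusted p = 0.0417). Both calls were lost after quantile normalization (adjusted p = 0.158 and 0.0977) and median-of-ratios rescaling (adjusted p = 0.162 and 0.0864). The first likewise ended without any control or 30 mM replicate 2 or 3 (adjusted p = 0.0645 to 0.13), and the second without any one library except 30 mM replicate 2 (adjusted p = 0.0517 to 0.139).

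A single pectinesterase fell. T15_2_TRINITY_DN6146_c0_g1 had 5.96, 6.36 and 6.02 FPKM in the controls, 2.79, 3.77 and 4.83 at 15 mM and 1.56, 2.03 and 0.54 at 30 mM. The controls were nearly equal, and the 3 ranges were separate and ordered by dose. It fell by 1.64 at 30 mM (log2 fold change, SE 0.25, adjusted p = 0.00463), and its difference of -1.05 between the doses was not called (adjusted p = 0.0652). TCK_2_TRINITY_DN12886_c0_g1, singled out after its values were seen, had a change of -1.52 at 30 mM that did not pass (SE 0.50, adjusted p = 0.0904). Its controls were uneven, at 4.6, 13.2 and 3 FPKM.

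Among GH28 sequences, the family of the polygalacturonases, 2 of 14 rose at 30 mM, none fell and 12 did not pass the test. The family median was 0.21, against 0.30 for annotated sequences. The summed level was 18.7, 20.5 and 20.8 FPKM in the controls, 25.3, 20.1 and 30.4 at 15 mM and 28.8, 28.1 and 21.8 at 30 mM. The 30 mM libraries were above the controls as deposited and overlapped with them after median-of-ratios rescaling. With the 4 leading sequences of the table left out, both doses were above the controls, at 36.3 to 41.5 for 15 mM and 37.9 to 44.5 for 30 mM against 33.9 to 34.3.

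T30_3_TRINITY_DN12392_c0_g1 had 0.48, 0.76 and 0.38 FPKM in the controls, 0.99, 0.82 and 2.84 at 15 mM and 3.22, 4.3 and 2.96 at 30 mM. One 15 mM library, replicate 3, lay close to the 30 mM range and the other 2 close to the controls. It rose by 1.54 at 30 mM (log2 fold change, SE 0.28, adjusted p = 0.00939). T15_3_TRINITY_DN5370_c0_g1 was rarer, at 0.457 ± 0.0503, 0.75 ± 0.111 and 1.5 ± 0.18 FPKM, and rose by 0.78 (SE 0.14, adjusted p = 0.00914). The most abundant GH28 sequence, T30_2_TRINITY_DN10817_c0_g1, had 3.83 ± 0.264, 4.71 ± 0.633 and 3.52 ± 1.27 FPKM, with no call (-0.13 at 30 mM, SE 0.21, adjusted p = 0.75).

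The cellulose synthase family was led by T15_1_TRINITY_DN7568_c0_g1, the most abundant of all 101 members. It had 133, 184 and 134 FPKM in the controls, 135, 103 and 156 at 15 mM and 187, 86.8 and 152 at 30 mM. All groups overlapped, and the change at 30 mM was -0.14 (log2 fold change, SE 0.29, adjusted p = 0.823). The whole family summed to 199.5, 252.3 and 210.1 FPKM in the controls, 216.9, 169.0 and 258.8 at 15 mM and 289.5, 168.9 and 238.5 at 30 mM, and all groups overlapped. After median-of-ratios rescaling the 15 mM sums, 187.6 to 212.8, were below those of all controls, 225.0 to 298.3, while 30 mM overlapped with both. With the 4 leading sequences of the table left out all groups overlapped, with means of 377.4, 329.7 and 372.6 at 0, 15 and 30 mM. Without its leading sequence the family summed to 66.7, 68 and 76.2 FPKM in the controls, 81.6, 66.2 and 102.9 at 15 mM and 102.8, 82.1 and 86.7 at 30 mM. This remainder includes T30_1_TRINITY_DN6214_c0_g1, with means of 14.5, 15.9 and 14.7 FPKM at 0, 15 and 30 mM. That sequence is also annotated with a retrotransposon domain (cd09272, RNase_HI_RT_Ty1), so its place in the family is uncertain.

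Of the 20 members 3 rose at 30 mM. T30_3_TRINITY_DN8423_c0_g1 holds the family domain (PF03552) alone, so it may be a cellulose synthase or a synthase-like protein. It had 0.77, 0.61 and 0.74 FPKM in the controls, 1.17, 0.87 and 1.12 at 15 mM and 5.18, 3.73 and 5.48 at 30 mM. The 15 mM libraries lay just above the controls and far below 30 mM. It rose by 1.75 at 30 mM against control (SE 0.16, adjusted p = 0.000426) and by 1.49 from 15 to 30 mM (SE 0.16, adjusted p = 0.0033), while the 0.26 at 15 mM was not called (SE 0.16, adjusted p = 0.581). The other risers are 2 of the 3 family members that also carry a RING-type zinc-binding domain. Both have PF14570, not the PF14569 of the third, so they are not shown to be cellulose synthase subunits. T15_3_TRINITY_DN9622_c0_g1 had 0.58, 0.55 and 0.85 FPKM in the controls, 1.66, 1.05 and 1.96 at 15 mM and 3.12, 2.26 and 5.02 at 30 mM (1.39 at 30 mM, SE 0.24, adjusted p = 0.00765). T30_2_TRINITY_DN2879_c0_g1, named because it was called, had means of 2.59 ± 0.515, 3.7 ± 1.06 and 6.22 ± 0.83 FPKM (1.01, SE 0.19, adjusted p = 0.0112), which no longer passed without control replicate 1 (adjusted p = 0.0511). The third, T30_2_TRINITY_DN172_c0_g2, whose RING finger is annotated as that of plant cellulose synthases, had 4.41 ± 0.0586, 5.3 ± 1.6 and 6.02 ± 1.08 FPKM and was not called (0.36, SE 0.19, adjusted p = 0.268).

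**Figure D4:**
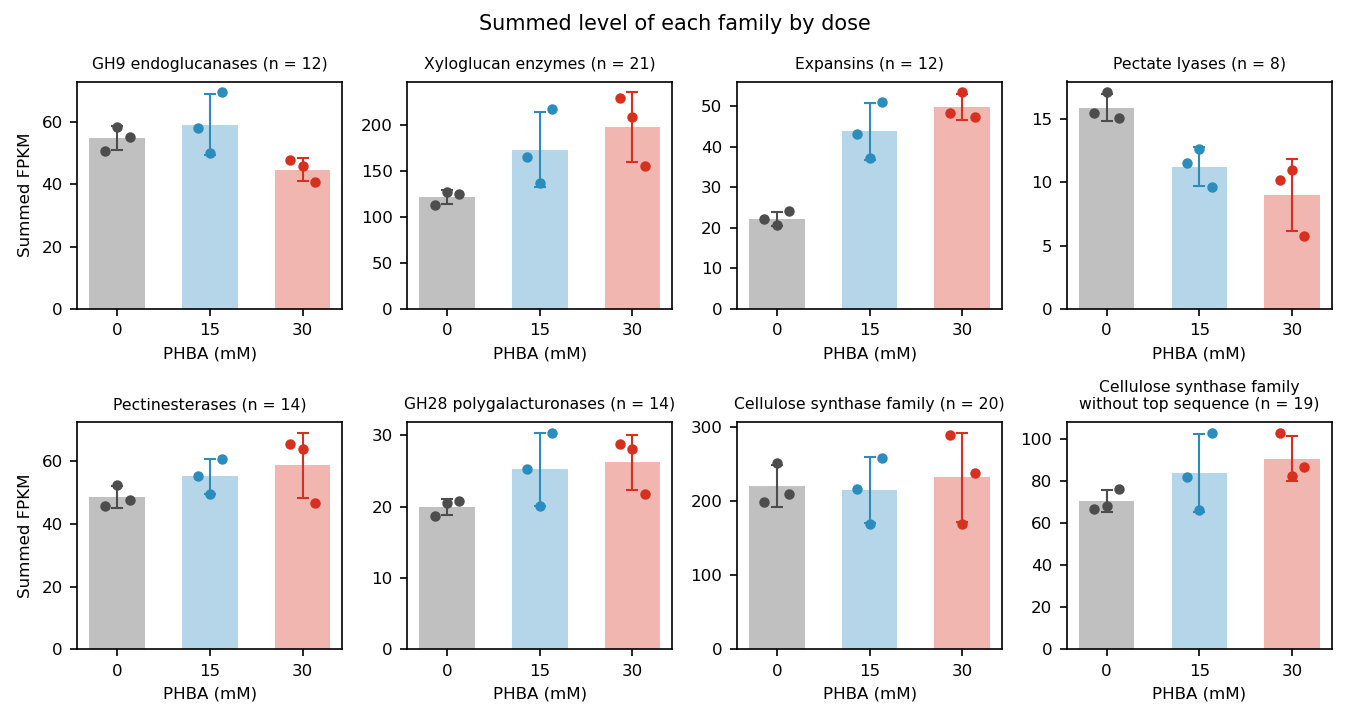
Summed FPKM of each family (vertical axis, from 0) against PHBA dose in mM. Bars are means of 3 libraries, error bars their SD and points the libraries. The last panel leaves out the most abundant sequence of the cellulose synthase family. Expansins go from 20.7 to 24.1 FPKM in the controls to 37.2 or more in treated libraries, pectate lyases from 15.1 or more to 12.6 or less, and GH9 sums are lowest at 30 mM.

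Other wall genes outside these families were called about as often as annotated sequences in general. Of 187 annotated sequences of 15 further wall groups that passed the minimum, 41 rose and 5 fell at 30 mM, beside 21.1% and 2.95% of all annotated sequences. Their median log2 fold change was 0.23, beside 0.30. None was called at 15 mM, and 8 rose and 2 fell from 15 to 30 mM, beside 4.81% and 1.15% of annotated sequences. The xyloglucan fucosyltransferase domain, also searched for, was in no sequence of the table. The groups are given as counts, to be read against the same 21.1% higher and 2.95% lower, and nothing is read from their differences. Glycosyltransferases of family 8, which include enzymes of pectin and xylan synthesis, had 7 of 23 higher and none lower. The family of wall polysaccharide O-acetylation had 9 of 34 higher and none lower. Callose synthases, which make the β-1,3-glucan of wounded and infected walls, had 2 of 10 higher, and COBRA-type proteins, known in Arabidopsis for a part in cellulose deposition, 2 of 4. GH17 enzymes, which include β-1,3-glucanases, had 5 of 25 higher and none lower, and family 47 glycosyltransferases 3 of 20 higher and none lower. Proteins with the pectinesterase inhibitor domain alone had 2 of 9 higher and 1 lower. Pectin acetylesterases had 1 of 6 higher, rhamnogalacturonate lyases 1 of 3, GH3 enzymes 2 of 12 and GH10 xylanases 1 of 3, with none lower in these groups. In GH35 β-galactosidases 1 of 10 rose and 1 fell, in GH5 1 of 7 and 1, and in fasciclin-like proteins 1 of 11 and 1. In glycosyltransferases of family 2, searched for as possible synthases of glucomannan and xyloglucan backbones, 3 of 10 rose and 1 fell. Their domains alone do not show that each makes such a backbone.

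Among these, the pectin acetylesterase T30_1_TRINITY_DN4144_c0_g1 had 4.11 ± 0.175, 6.34 ± 1.53 and 20.7 ± 11.5 FPKM at 0, 15 and 30 mM (log2 fold change 1.94 at 30 mM, SE 0.34, adjusted p = 0.0083). The family 2 glycosyltransferase TCK_2_TRINITY_DN8649_c0_g1 had 2.89 ± 1.14, 11.9 ± 6.14 and 14.7 ± 2.65 FPKM (2.04, SE 0.36, adjusted p = 0.00792). Another of that group, T30_1_TRINITY_DN10581_c0_g2, fell from 17.0 ± 1.52 to 14 ± 0.605 and 7.43 ± 0.887 FPKM (-1.10 at 30 mM, SE 0.12, adjusted p = 0.000967). The fall from 15 to 30 mM was -0.84 in this sequence (SE 0.12, adjusted p = 0.01). These 3 were singled out after their values were seen.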

How the data were processed

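Leaf RNA of 9 libraries in 3 groups was used. The authors deposited FPKM values, which were used here, and read counts are not used here. Per the submitters' processing notes, Trimmomatic 0.36, FastQC 0.11.5, RSEM and DESeq were used, with no role stated. The row names refer to Trinity, an assembler, per the file headers. How assemblies were merged, any genome build and any filter: not given in the sources used here. Protein domains came from a separate annotation that the authors deposited, which holds no measured values.

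Here FPKM was used as deposited. Sequences with 0.5 FPKM or more in at least 3 libraries were fitted as log2(FPKM + 1) with limma 3.58.1 in R 4.3.3, with 3 group means over all 9 libraries, 6 residual degrees of freedom and empirical Bayes moderation with a mean trend. Log2 fold changes on this scale understate the change of low values. P-values are two-sided and Benjamini-Hochberg adjusted over all sequences kept. The fit was tested on simulated data with independent noise and fixed changes added to sequences that were not rare. Those data held no shift in library composition, so they do not cover the dependence of the calls on scale. Tables and plots used Python 3.11.15, pandas 2.3.3 and matplotlib 3.10.9. Members and lists were chosen with earlier results of these data known. Named sequences are the most abundant of each family, in each family the 2 strongest calls in each direction at 30 mM with a highest group mean of at least 1 FPKM, and members called in the other comparisons (at most 10 each, by adjusted p). Other called members are named as such. Alternatives were 2 pseudocounts, no filter, 3 scalings, array weights, a fit of the compared groups alone, a replicate block and leaving out each library.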

Additional observations from a re-analysis of the deposited data

How the results depend on the processing

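Alternatives to the main settings moved the number of members called, and no named call changed direction in any of the 18. At 15 mM against control the total of 1 (1 higher, 0 lower) became 2 (2 higher) with a pseudocount of 0.1 or median-of-ratios rescaling, and 0 with a pseudocount of 5, no filter on low values, the compared groups alone or the replicate block. It became 3 (2 higher, 1 lower) with quantile normalization or the 4 most abundant sequences left out, and 8 (7 higher, 1 lower) with array weights. At 30 mM against control the 17 higher and 10 lower became 11 and 19 with quantile normalization. They became 12 and 19 with median-of-ratios rescaling, and 21 and 15 with the 4 sequences left out. Between the doses the 4 calls (3 higher, 1 lower) became 8 (3 and 5) under either of the first 2 rescalings, 10 (5 and 5) with the 4 sequences left out, 6 (3 and 3) with array weights and 2 (2 and 0) with the compared groups alone. The lower count was 0 with a pseudocount of 5, no filter or the block. The cause of these changes was not tested.

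Leaving out 1 library at a time gave 0 to 2 calls at 15 mM (0 to 2 higher, 0 lower). It gave 16 to 28 at 30 mM (10 to 18 higher, 6 to 10 lower), and 2 to 6 between the doses (2 to 4 higher, 0 to 3 lower). Same-numbered libraries did not deviate together (correlations of -0.013 to 0.027). That cannot exclude that the numbers pair libraries in the design, which the labels do not state. The replicate block gave 0 calls at 15 mM, 15 higher and 9 lower at 30 mM, and 3 higher and 0 lower between the doses. With 3 libraries a group and 2-decimal FPKM, rare sequences are the least precise.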
